A study of Mus musculus with 2 samples.

Results

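Interleukins and their receptors were described in 2 bulk libraries of macrophages sorted from leukaemic mice. Both libraries also held reads of markers of other cell types, some with larger sums than the macrophage markers. Which cells the interleukin reads came from was not tested. The genes were all rows whose symbol begins with Il followed by a digit, and 62 of the 16428 genes with a read in either library met that rule. Of these, 50 had at least 10 reads in a library and are described by value, among 12970 such genes in all. Another 12 had fewer than 10 reads in both libraries. The rule used only the symbol, so it takes in soluble inhibitors, decoy receptors and 1 enzyme (Il4i1), and it leaves out receptor chains with other names, such as Csf2rb and Ebi3.

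The 2 libraries came from C57BL/6J mice of 6 to 8 weeks that received 500000 GFP-labelled leukaemia cells each, without irradiation, in a model of acute myeloid leukaemia driven by the MLL-AF9 fusion oncogene. Sorted macrophages were taken 15 days after transplantation, 1 library from bone marrow and 1 from spleen, and mice of this model lived for 25 to 30 days. Both groups thus carried the leukaemia, and healthy animals were not analysed here. The sorting markers and the number of mice in a library are not given in the labels. Neither tissue had a replicate library, so the differences have no test and no replicate error, and each interval covers counting error only.

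Interleukins are secreted messengers through which leukocytes direct the growth, survival and activation of other cells. Most act through receptors built from a chain that recognises the cytokine and a chain that several cytokines share, and these signal through JAK kinases and STAT factors. The IL-1 and IL-17 families use other adaptors, MyD88 with IRAK kinases and Act1 respectively, and feed into NF-kB. In the marrow and spleen these signals set the output of myeloid cells and the survival of lymphocytes.

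Of 9 receptor genes of the common gamma chain family, which serves lymphocytes, 6 stood higher in spleen, as did Il6st, which encodes gp130, and the IL-10 binding chain Il10ra, and receptors for IL-1, IL-33, IL-36 and IL-3 stood higher in bone marrow. Of the 50 genes, 33 passed 2-fold, 19 (38.0%) with more in spleen and 14 (28.0%) with more in marrow, and 17 lay within that limit. Over all 12970 genes with at least 10 reads, 28.8% passed 2-fold, 14.6% towards spleen and 14.1% towards marrow. The 2-fold limit was applied to log2(CPM + 1), where CPM is the read count scaled to library size. On that scale the median ratio of bone marrow to spleen was -0.56 for the 50 genes and 0.03 for all genes, negative values standing for higher levels in spleen. The count towards marrow depended on the setting. It was 5 of 50 with a pseudocount of 5 CPM, beside 9.59% of all genes. Among genes with at least 10 CPM it was 9 of 34, beside 13.7% of all such genes.

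Receptors held most of the reads. The 34 receptor and decoy genes summed to 1305 CPM in marrow and 2884 CPM in spleen, and the 13 cytokine genes to 246 and 483 CPM. Among receptors and decoys 12 were higher in spleen and 10 in marrow, and among cytokines 6 and 4, beside 14.6% and 14.1% of all genes. Both soluble inhibitors, Il1rn and Il18bp, lay within 2-fold. Per gene length, in RPKM (reads scaled to gene length and library size), the highest level in each library belonged to Il2rg, which encodes the common gamma chain, at 62.6 RPKM in marrow and 237 RPKM in spleen. In bone marrow it was followed by Il17ra (55.9 RPKM), Il2rb (55.8), Il10rb (34.6) and Il16 (34.3). Reads covered 60.8% of the length of Il16 in marrow, against a median of 98.1% for genes of like length and read count. The level of Il16 per length is therefore uncertain. In spleen Il2rg was followed by Il10ra (118 RPKM), Il21r (93.7), Il17ra (86.6) and Il2rb (83.0). Il21r was thus among the 5 leading genes in spleen but reached 13.9 RPKM in marrow.

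**Figure D1:**
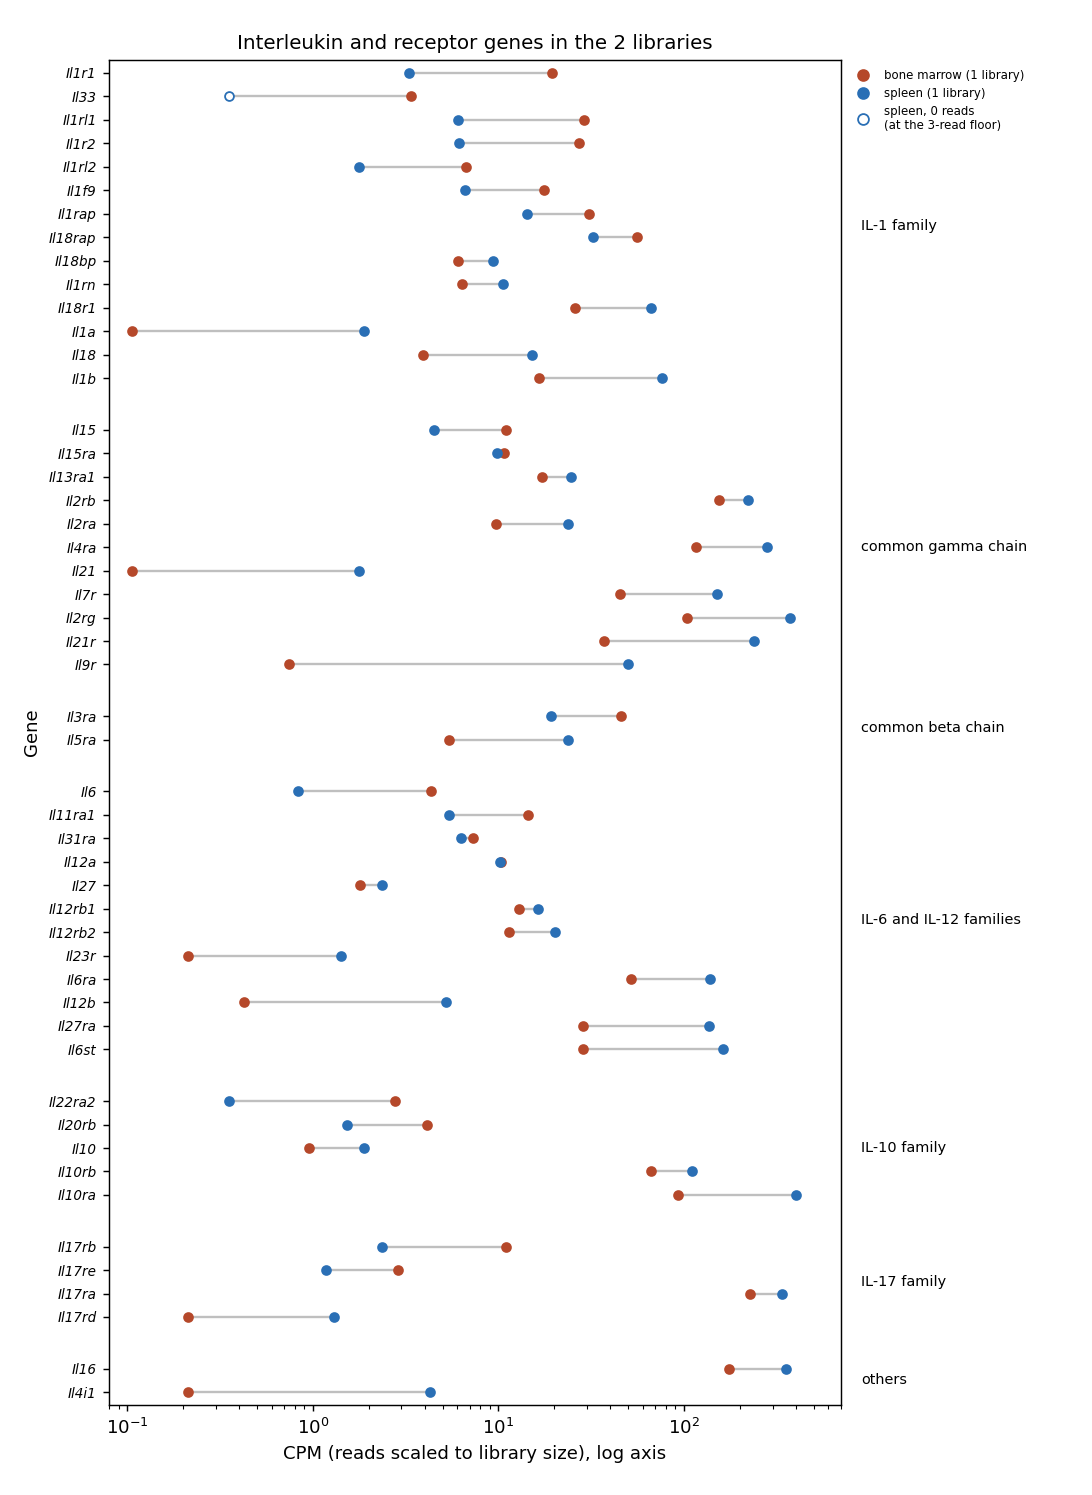
CPM of the 50 genes in the bone marrow library (red) and the spleen library (blue) on a log axis, grouped by cytokine family, 1 library per tissue and no error bars. Within the common gamma chain family most blue points lie to the right of the red ones, whereas the upper rows of the IL-1 family show the opposite order.

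Markers of other cell types also differed between the libraries. All 13 macrophage markers had reads in both libraries, summing to 583 CPM in marrow and 1265 CPM in spleen, with 7 of 13 higher in spleen and 0 in marrow. All 13 T cell markers (257 and 1749 CPM), all 10 B cell markers (471 and 4951 CPM) and 7 of 10 dendritic cell markers (218 and 1236 CPM) were higher in spleen. In bone marrow 11 of 12 neutrophil and precursor markers (44422 against 2049 CPM), all 8 basophil, mast cell and eosinophil markers (2625 against 53.0 CPM) and 4 of 5 stem and progenitor markers (1154 against 244 CPM) were higher. Of 8 NK cell markers (365 and 389 CPM in sum) Gzma, Prf1 and Eomes were higher in spleen, Nkg7 (195 against 91.4 CPM) was higher in marrow and 4 lay within 2-fold. No marker of these lists was at 0 in either library. Megakaryocyte markers summed to 265 and 17.1 CPM, plasma cell markers to 491 and 2096 CPM, and stromal and endothelial markers to 43.3 and 9.34 CPM, mostly from Pdgfrb (32.5 and 2.01 CPM), with Cxcl12 at 0 in spleen. The endothelial Cdh5 (15 and 27 reads) and the stromal Lepr (19 and 32 reads) had more reads in spleen and lay within 2-fold. In such bulk libraries fewer cells of a type and less RNA per cell cannot be told apart, and the part of these markers in the interleukin results was not tested.

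The DNA before the transcription start is shown for 6 genes with the letters TTGCNNAA (either strand), a form of the site that C/EBP factors of myeloid cells recognise, and for Il1b and Il9r, which are higher in spleen and lack them. RefSeq (GRCm38.p6) gave 52 start sites for 40 of the 50 genes, and each window held the 250 bases before a start. Those letters stood in 7 of 16 windows of genes higher in marrow, 2 of 21 of genes higher in spleen, 2 of 15 of the rest and 9.56% of 32851 windows of all genes. The 7 belong to Il1r1, Il1rl1, Il1rl2, Il3ra, Il6, Il20rb and Il33, of which the last 2 are not shown. The 2 of genes higher in spleen belong to Il7r, shown here, and Il16. The motifs were chosen after the calls, and the windows shown after the matches, were known, so the count is a description, and a match is not a bound site. Of the 52 windows, 12 held GAGGAA, the core of sites for the myeloid factor PU.1 (23.3% of all windows). These were 2 of 16 windows of genes higher in marrow, 5 of 21 of genes higher in spleen and 5 of 15 of the rest. Sites of GATA factors, with the letters AGATAA, stood in 7 (9.99%), split in the same order as 4 of 16, 3 of 21 and 0 of 15. The TATA box, searched as TATAAA, stood in 6 (12.4%), split as 3 of 16, 3 of 21 and 0 of 15. A longer motif of NF-kB was also searched, and its matches are not reported here. In the lines that follow, written 5′ to 3′ along the gene's strand, capitals mark any match to the 4 motifs given in letters, on either strand.
Il6 (chr5:30012864-30013113, plus strand): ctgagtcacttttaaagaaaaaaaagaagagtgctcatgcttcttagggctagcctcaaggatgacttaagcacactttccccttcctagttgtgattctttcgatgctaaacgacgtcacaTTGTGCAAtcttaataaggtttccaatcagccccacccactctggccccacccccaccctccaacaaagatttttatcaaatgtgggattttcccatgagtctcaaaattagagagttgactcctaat
Il1r1, first listed start (chr1:40224830-40225079, plus strand): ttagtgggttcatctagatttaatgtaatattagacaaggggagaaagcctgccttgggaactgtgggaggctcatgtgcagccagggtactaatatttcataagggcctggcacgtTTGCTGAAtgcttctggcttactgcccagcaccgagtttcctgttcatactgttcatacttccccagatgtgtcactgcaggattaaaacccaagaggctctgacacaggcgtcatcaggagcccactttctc
Il1rl1, first listed start (chr1:40429320-40429569, plus strand): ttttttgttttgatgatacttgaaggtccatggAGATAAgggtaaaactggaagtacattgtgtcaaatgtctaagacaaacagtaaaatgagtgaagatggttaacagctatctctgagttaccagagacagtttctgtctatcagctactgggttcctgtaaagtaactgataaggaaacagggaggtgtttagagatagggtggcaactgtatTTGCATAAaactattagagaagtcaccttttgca
Il1rl2 (chr1:40324339-40324588, plus strand): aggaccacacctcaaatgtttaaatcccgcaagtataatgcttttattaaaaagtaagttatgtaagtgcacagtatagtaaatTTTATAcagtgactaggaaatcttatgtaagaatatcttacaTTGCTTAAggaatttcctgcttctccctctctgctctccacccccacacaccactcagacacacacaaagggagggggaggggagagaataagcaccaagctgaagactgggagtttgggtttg
Il3ra (chr14:14346245-14346494, plus strand): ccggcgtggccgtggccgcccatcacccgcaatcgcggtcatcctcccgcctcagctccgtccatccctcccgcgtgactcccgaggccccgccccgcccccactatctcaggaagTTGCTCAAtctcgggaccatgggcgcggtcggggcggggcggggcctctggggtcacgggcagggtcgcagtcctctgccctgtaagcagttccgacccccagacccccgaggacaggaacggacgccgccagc
Il7r (chr15:9529877-9530126, minus strand): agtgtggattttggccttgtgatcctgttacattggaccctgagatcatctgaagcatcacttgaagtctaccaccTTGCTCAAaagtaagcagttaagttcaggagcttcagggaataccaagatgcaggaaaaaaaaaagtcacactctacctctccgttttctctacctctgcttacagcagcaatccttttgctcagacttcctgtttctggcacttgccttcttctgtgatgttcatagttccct
Il1b (chr2:129371140-129371389, minus strand): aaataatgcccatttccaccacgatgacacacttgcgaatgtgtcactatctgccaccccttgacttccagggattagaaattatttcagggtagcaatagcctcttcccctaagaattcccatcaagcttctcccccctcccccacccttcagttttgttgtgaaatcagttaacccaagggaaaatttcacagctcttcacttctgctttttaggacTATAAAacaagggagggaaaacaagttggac
Il9r (chr11:32200280-32200529, minus strand): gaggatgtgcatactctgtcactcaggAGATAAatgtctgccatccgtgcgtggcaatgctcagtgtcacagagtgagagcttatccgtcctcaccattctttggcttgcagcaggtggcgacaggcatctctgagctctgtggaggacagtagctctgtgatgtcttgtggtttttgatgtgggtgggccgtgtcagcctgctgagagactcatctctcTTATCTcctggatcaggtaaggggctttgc

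The Il6 window holds TTGTGCAA from base -128 to -121, counted from the start. In the first listed window of Il1rl1 the C/EBP-type match TTGCATAA lies at -34 to -27 and the GATA letters at -217 to -212. The Il1b window holds a TATA box at -31 to -26 and none of the other 3 motifs, and the Il9r window holds the GATA letters at both -223 to -218 and -30 to -25.

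With the setting used here, most receptors of the IL-1 family were higher in marrow, and the cytokines were split between the libraries. This family includes the inflammatory cytokines IL-1 and IL-18, the alarmin IL-33 and the IL-36 cytokines of barrier tissues. Of its 7 receptor genes, the decoy Il1r2 included, 5 were higher in marrow, 1 was higher in spleen and 1 lay within 2-fold. Among all genes 14.1% were higher in marrow and 14.6% in spleen. The receptor genes Il1rl2 and Il1rap lost their calls with a pseudocount of 5 CPM, and Il1rap also did on log2(RPKM + 1). Of its 5 cytokine genes, 3 were higher in spleen (Il1a, Il1b, Il18) and 2 in marrow (Il33, Il1f9). The call of Il1a was lost on log2(RPKM + 1), which left 2 in each. With a pseudocount of 5 CPM Il1a, Il33 and Il1f9 lost theirs, and only Il1b and Il18, both higher in spleen, stayed called.

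Il1r1, the signalling receptor of IL-1, had 182 reads in marrow and 28 in spleen. It was 5.84-fold higher in marrow (95% interval 3.91 to 9.04), with the largest ratio towards marrow on the log2(CPM + 1) scale (2.24). Il1r2, the decoy that binds IL-1 without signalling, had 257 and 52 reads and was 4.44-fold higher (3.29 to 6.11). Receptor and decoy therefore stood higher in the same library. Per length the decoy exceeded the signalling receptor in both, by 4.99 times in marrow (19.6 against 3.93 RPKM) and by 6.57 times in spleen (4.63 against 0.705 RPKM). Il1rap, the accessory chain that IL-1, IL-33 and IL-36 receptors share, had 288 and 121 reads, a 2.14-fold difference (1.72 to 2.67) that fell inside the 2-fold limit when library totals alone were used for scaling.

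Il1rl1, which encodes the IL-33 receptor ST2, had 273 reads in marrow and 51 in spleen, a 4.81-fold difference (3.56 to 6.63). ST2 is known on mast cells, basophils and regulatory T cells. Its cytokine Il33 had 32 reads in marrow and 0 in spleen. A count of 0 was set at a floor of 3 reads (0.355 CPM in spleen), against which Il33 was 9.59-fold higher in marrow. The lower limit of its exact 95% interval, which takes in the error of both counts, was 7.36-fold. Il1rl2, the IL-36 receptor, had 63 and 15 reads, or 3.78-fold more in marrow (2.13 to 7.14). Its agonist Il1f9, also named IL-36 gamma, had 166 and 56 reads and was 2.67-fold higher there (1.96 to 3.68). IL-33 and IL-36 gamma thus each stood higher in the library in which their receptor was higher.

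Il1b showed the opposite direction to its receptor. It had 156 reads in marrow and 645 in spleen, 16.6 and 76.3 CPM, and was 4.6-fold higher in spleen (3.85 to 5.51). Its natural antagonist Il1rn differed less, with 60 and 90 reads and a 1.67-fold higher level in spleen (1.19 to 2.35). The RPKM ratio of Il1b to Il1rn was therefore 4.86 in marrow and 13.4 in spleen. Il1a had 1 read in marrow and 16 in spleen, or 17.8-fold with a counting interval of 2.76 to 746. An antisense gene, Il1bos, overlaps Il1b and had 4 and 12 reads of its own, and since the strand of the counting is not given, reads of the pair cannot be told apart.

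Il18 and its binding chain were higher in spleen, and the accessory chain was not called. Il18 had 37 reads in marrow and 129 in spleen and was 3.88-fold higher in spleen (2.67 to 5.75). Il18 overlaps Bco2, a gene with 18 and 42 reads, and Tex12, with 0 and 2. Il18r1, its binding chain, had 244 and 563 reads and was 2.57-fold higher in spleen (2.20 to 2.99). Il18rap, the accessory chain needed for signalling, had 526 and 272 reads, 1.74 times more in marrow (1.5 to 2.02) and within the 2-fold limit. The order of the chains per length changed accordingly: Il18r1 and Il18rap stood at 6.10 and 21.9 RPKM in marrow and at 16.4 and 13.2 RPKM in spleen. Il18bp, a secreted protein that neutralises IL-18, had 57 and 79 reads. The RPKM ratio of Il18 to Il18bp was 1.07 in marrow and 2.68 in spleen.

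The 6 receptor genes Il1r2, Il1r1, Il1rl2, Il1rl1, Il18r1 and Il18rap follow each other on chromosome 1 with no other protein-coding gene between them in RefSeq. The first 4 of the row were higher in marrow, the fifth was higher in spleen and the last lay within 2-fold. Among the other adjacent genes with at least 10 reads, Il1a and Il1b were both higher in spleen, and so were Il4ra and Il21r. Il6st and Il31ra, and likewise Il2ra and Il15ra, are neighbours of which only the first named was called. In the adjacent pair Il12rb2 and Il23r neither was called.

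**Figure D2:**
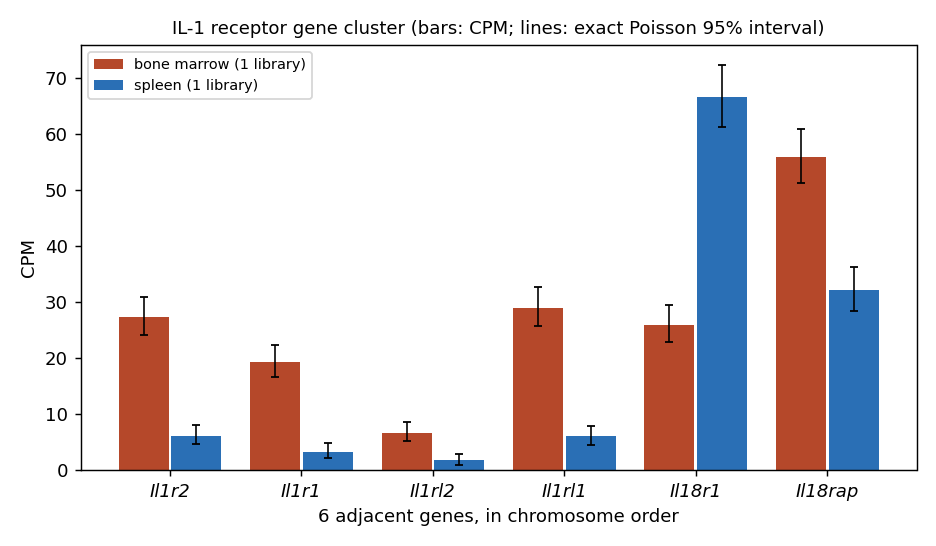
CPM of the 6 adjacent IL-1 receptor family genes in chromosome order, bone marrow in red and spleen in blue, with exact Poisson 95% intervals of the count and 1 library per bar. The red bar is higher for the first 4 genes and for Il18rap, and the blue bar is higher for Il18r1.

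Receptors of the common gamma chain family were higher in spleen or within 2-fold. These receptors serve IL-2, IL-4, IL-7, IL-9, IL-15 and IL-21, which support lymphocytes, and signal largely through JAK1 and JAK3. Of 9 receptor genes (Il13ra1, which pairs with Il4ra, included), 6 were higher in spleen, 0 in marrow, and the other 3 lay within 2-fold. Among all genes 14.6% were higher in spleen and 14.1% in marrow. Markers of T and B cells also leaned to spleen (median log2 ratios of -2.97 and -3.03), and their part in this was not tested.

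Il2rg, the shared chain itself, had 971 reads in marrow and 3161 in spleen and was 3.62-fold higher in spleen (3.37 to 3.89). The cytokine-specific chains spread widely around it. Il9r had 7 and 420 reads and was 66.7-fold higher in spleen (32.1 to 167), the largest ratio among the 50 genes on the log2(CPM + 1) scale. Il21r had 349 and 2019 reads, 6.43-fold more in spleen (5.74 to 7.23). Reads covered 99.4% of the length of Il9r in spleen and 10.2% in marrow in the deposited coverage column. Il7r, the IL-7 receptor of lymphocytes and their precursors, had 427 and 1274 reads, a 3.32-fold difference (2.97 to 3.71). Il4ra, the IL-4 and IL-13 receptor chain that also serves alternative activation of macrophages, had 1095 and 2364 reads, a 2.40-fold difference (2.23 to 2.58).

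Of the remaining IL-2 and IL-15 receptor chains Il2ra passed the limit, and Il2rb and Il15ra did not. Il2ra encodes the alpha chain of the high-affinity IL-2 receptor, carried by regulatory T cells among other cells. Il2ra had 91 reads in marrow and 201 in spleen and was 2.46-fold higher in spleen (1.91 to 3.18). Il2rb, the signalling chain that IL-2 and IL-15 share, had 1457 and 1860 reads, 1.42 times more in spleen (1.32 to 1.52). Il15ra, which presents IL-15, was nearly level at 101 and 83 reads. Il15 itself had 103 and 38 reads and was 2.44-fold higher in marrow (1.67 to 3.64). It was the 1 gene of 11 in this family called towards marrow. Per length Il2rg and Il2rb were close in marrow (62.6 and 55.8 RPKM) and apart in spleen (237 and 83.0 RPKM). Of the NK cell markers, which belong to cells rich in Il2rb, 3 of 8 were higher in spleen and 1 in marrow, and their part in the Il2rb values was not tested.

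Il21, a product of helper T cells, had 1 read in marrow and 15 in spleen, or 16.7-fold with an interval of 2.57 to 702. Il13ra1 had 162 and 207 reads and lay within 2-fold. The T cell cytokine genes Il2 (4 reads in each library), Il4 (8 and 3) and Il13 (2 and 0) stayed under 10 reads. Il7, a cytokine of stromal cells, had 8 reads in marrow and 0 in spleen.

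The IL-3 and IL-5 receptor chains differed in opposite directions. Both pair with the common beta chain, and both cytokines support granulocytes. Il3ra, the IL-3 receptor of basophils and myeloid progenitors, had 431 reads in marrow and 163 in spleen and was 2.38-fold higher in marrow (1.98 to 2.87). Il5ra, carried by eosinophils and by B-1 cells, had 51 and 200 reads and was 4.36-fold higher in spleen (3.19 to 6.05). The eosinophil gene Epx leaned to marrow, with 1589 reads there and 20 in spleen, and all 10 B cell markers were higher in spleen. The part of either cell type in the Il5ra values was not tested. Csf2rb, the common beta chain, had 3030 and 1447 reads, 1.88 times more in marrow (1.77 to 2.01) and within the 2-fold limit.

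Receptors of the IL-6 and IL-12 families included several that were higher in spleen. Of 8 receptor genes, 3 (37.5%) were higher in spleen, 1 (12.5%) in marrow and 4 lay within 2-fold. Among all genes 14.6% were higher in spleen and 14.1% in marrow, so the share towards marrow was near that of all genes. Il6st, which encodes gp130, the signal transducer shared by the IL-6 family, had 269 reads in marrow and 1372 in spleen and was 5.67-fold higher in spleen (4.97 to 6.49). Il6ra, the IL-6 binding chain, had 488 and 1175 reads and was 2.68-fold higher (2.41 to 2.98). The shared chain thus differed more than the binding chain, and the RPKM ratio of Il6ra to Il6st was 2.96 in marrow and 1.4 in spleen. Il27ra, which pairs with gp130, had 269 and 1150 reads and was 4.75-fold higher in spleen (4.16 to 5.45). It overlaps Palm3, a gene with 2 and 44 reads.

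Il6 itself went the other way, with 41 reads in marrow and 7 in spleen, 5.27-fold more in marrow (2.34 to 13.9). Il11ra1, the IL-11 receptor, had 135 and 46 reads and was 2.64-fold higher in marrow (1.88 to 3.77). Its value is uncertain, since mouse has a near-identical copy, Il11ra2, and only uniquely placed reads were counted. Reads covered 54.3% of its length in marrow, against a median of 89.4% for genes of like length and read count. Il31ra was nearly level at 69 and 53 reads.

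The IL-12 genes differed in 1 subunit. Il12b, the p40 subunit of IL-12 and IL-23 made by activated dendritic cells and macrophages, had 4 reads in marrow and 44 in spleen, a 12.2-fold difference (4.45 to 46.9). Il12a, the p35 subunit, had 97 and 86 reads and was level (ratio 1.01 towards marrow, 0.751 to 1.37). Per length p40 remained below p35 in both libraries, at 0.213 against 7.73 RPKM in marrow and 2.73 against 7.99 RPKM in spleen. The receptor chains Il12rb1 (121 and 138 reads) and Il12rb2 (107 and 170) lay within 2-fold, as did Il27 (17 and 20). Il12rb2 overlaps Serbp1, and Il27 overlaps Apobr, both far more abundant. Il23r had 2 and 12 reads and passed the 2-fold limit with library totals or a pseudocount of 0.1 CPM, not with the scaling used here.

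IL-10 restrains macrophages and dendritic cells through Il10ra, its binding chain, and Il10rb, a chain that IL-22 also uses. Il10ra had 875 reads in marrow and 3394 in spleen, the most of any interleukin gene there, and was 4.31-fold higher in spleen (4.0 to 4.65). Il10rb had 626 and 930 reads, 1.65 times more in spleen (1.49 to 1.83). The order per length was reversed between the libraries, with Il10ra below Il10rb in marrow (26.0 and 34.6 RPKM) and above it in spleen (118 and 59.9 RPKM). Il10 had 9 and 16 reads, and no difference was detectable at this depth. Il20rb (39 and 13 reads) and Il22ra2, a soluble decoy of IL-22 (26 and 3 reads, ratio 7.79 with an interval of 2.39 to 40.2), were higher in marrow at low levels. Il20rb fell inside the limit with library totals alone.

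**Figure D3:**
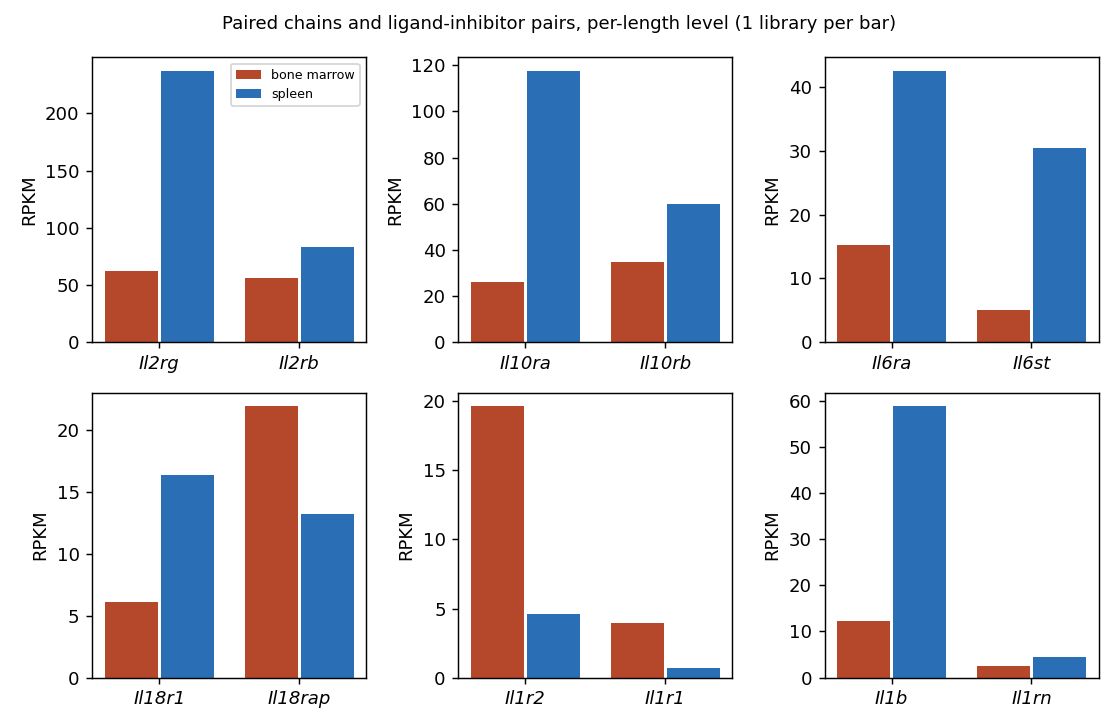
RPKM, a per-length level, of 4 receptor chain pairs, of the IL-1 decoy with its signalling receptor and of Il1b with its antagonist, in marrow (red) and spleen (blue), 1 library per bar and no error bars. Il10ra and Il10rb change order between libraries, as do Il18r1 and Il18rap, while Il1r2 exceeds Il1r1 in both.

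The IL-17 family had receptors but nearly no cytokine reads. Il17ra, the chain common to the family, had 2137 reads in marrow and 2841 in spleen, 1.48 times more in spleen (1.4 to 1.56) and within 2-fold. Il17rb, the IL-25 receptor chain known on type 2 innate lymphoid cells and NKT cells, had 104 and 20 reads and was 4.68-fold higher in marrow (2.88 to 7.97). Il17rc, which pairs with Il17ra for IL-17A and IL-17F, had 4 reads in each library. Il17re (27 and 10 reads) and Il17rd (2 and 11) were low and within the limit, which each crossed with a pseudocount of 0.1 CPM. Il17f and Il17d had 1 read each in marrow and 0 in spleen, and Il17c had 1 and 6 reads.

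Il16, whose protein is a chemoattractant for CD4-bearing cells, had 1647 reads in marrow and 3016 in spleen, just past the limit at 2.04-fold more in spleen (1.92 to 2.16). Cd4, its receptor, had 176 and 1870 reads. Il4i1, an enzyme that degrades aromatic amino acids and is induced by IL-4, had 2 and 36 reads. The Il4i1 value is uncertain, since it overlaps Tbc1d17 and a read-through gene, and its 36 reads in spleen covered 7.04% of its length against a median of 53.0% for like genes.

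**Figure D4:**
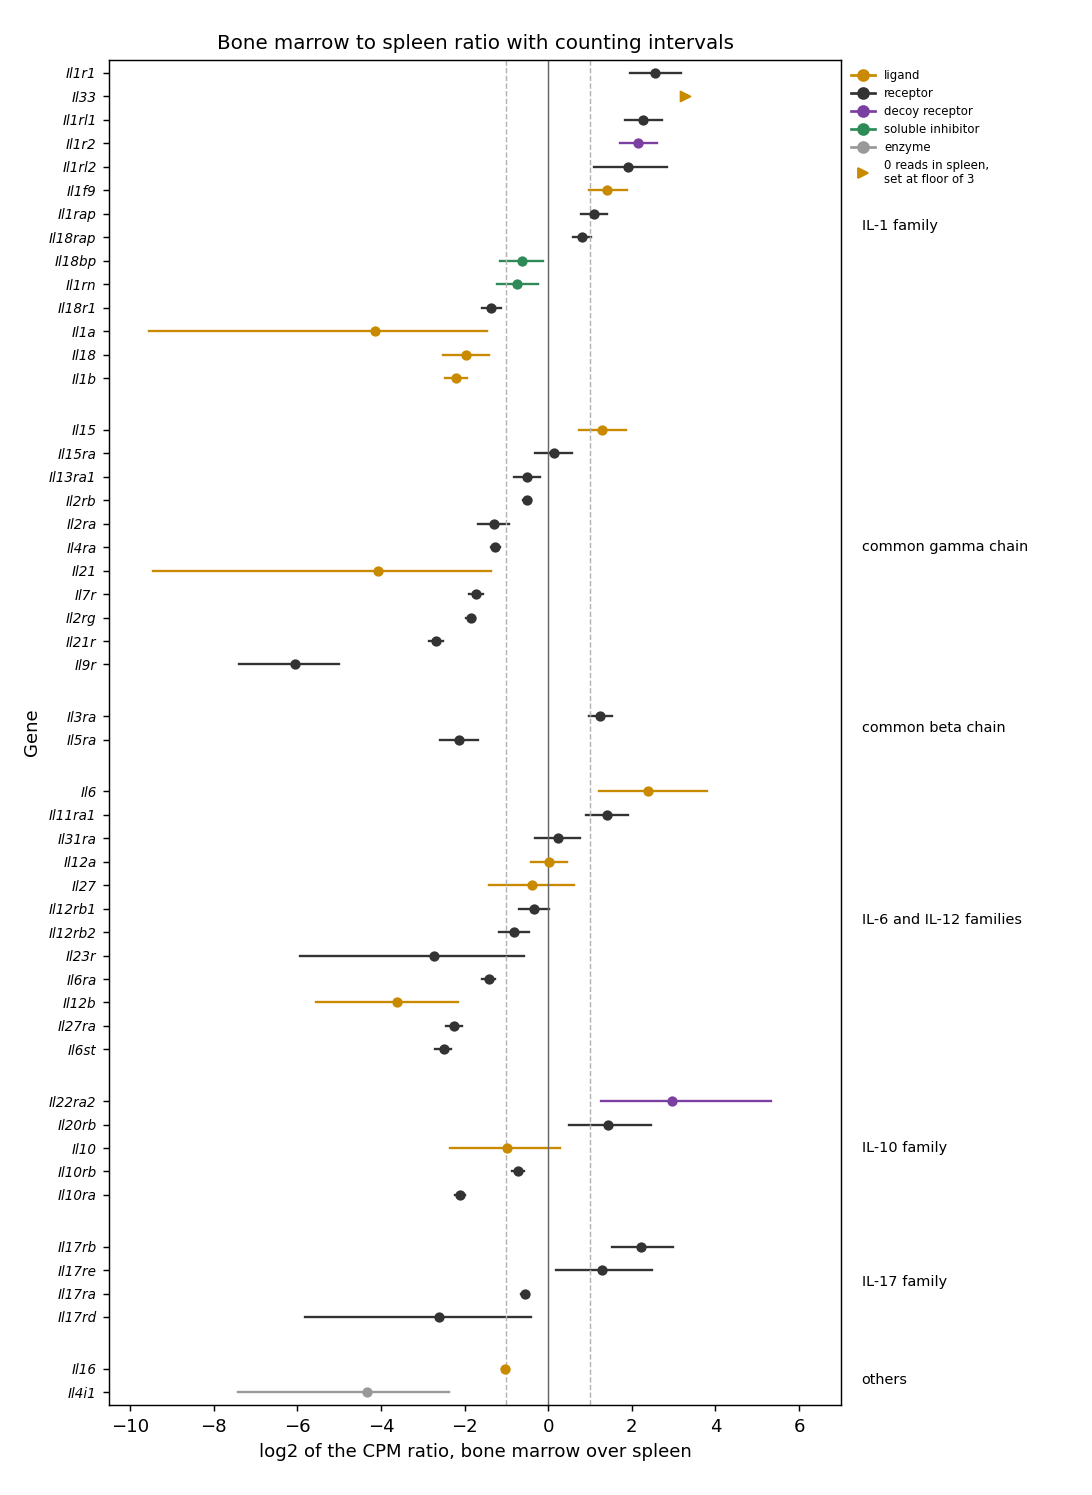
log2 of the CPM ratio of bone marrow over spleen for the 50 genes, with exact 95% counting intervals and colours for the role of the gene; dashed lines mark 2-fold, and the triangle is the ratio of Il33 against a floor of 3 reads. The axis carries no pseudocount, so low genes lie farther out than on the log2(CPM + 1) scale. Il9r lies farthest to the left, and in the IL-1 family the receptors lie to the right apart from Il18r1.

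Cytokine and receptor were set side by side in 12 pairs with at least 10 reads for each gene. In 4 pairs both were called higher in the same library: Il18 with Il18r1 and Il21 with Il21r in spleen, and Il33 with Il1rl1 and Il1f9 with Il1rl2 in marrow. In 3 pairs they were called in opposite libraries: Il1a and Il1b with Il1r1, and Il6 with Il6ra. In the other 5 at least 1 gene lay within 2-fold. The counts rest on low genes: with a pseudocount of 5 CPM, and likewise with a floor of 10 CPM, 1 pair was called in the same library (Il18 with Il18r1) and 1 in opposite libraries (Il1b with Il1r1). Pairs share genes and were listed after the calls were known, so these counts are a description.

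Among 21 signalling genes downstream of these receptors, 4 were higher in spleen and 1 in marrow. The other 16 lay within 2-fold, a share near the 71.2% of all genes that did so, and the median log2 ratio of the 21 was -0.36. Irak3, a brake on IL-1 and Toll-like receptor signalling in myeloid cells, had 768 reads in marrow and 247 in spleen and was the 1 gene higher in marrow (2.80-fold, 2.42 to 3.24). Irak2, another gene of the IRAK family, had 236 and 738 reads and was 3.48-fold higher in spleen (3.0 to 4.04). Traf3ip2, which encodes the IL-17 adaptor Act1, had 124 and 389 reads and was 3.49-fold higher in spleen (2.84 to 4.31). Jak2 and Socs1 were 2.03-fold and 2.55-fold higher in spleen. Jak3, the partner of the common gamma chain, was nearly level at 1642 and 1449 reads, unlike Il2rg.

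Of 7 genes of IL-1 and IL-18 maturation, 5 lay within 2-fold, also near the share of all genes, and 2 were higher in spleen. Nlrp3, an inflammasome sensor, had 86 reads in marrow and 259 in spleen (3.35-fold, 2.61 to 4.33), and the DNA sensor Aim2 had 298 and 741 reads (2.77-fold, 2.41 to 3.17). Casp1, the protease that cleaves the IL-1 beta and IL-18 precursors, had 369 and 502 reads and lay within 2-fold, as did its adaptor Pycard at 590 and 597 reads. Of 10 measured partner chains and ligands outside the symbol rule, 1 was higher in spleen (Cd4) and 1 in marrow (Tslp, with 20 and 2 reads), and 8 lay within 2-fold, beside 71.2% of all genes.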

How the data were processed

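RNA-seq libraries of sorted macrophages, 1 from bone marrow and 1 from spleen of leukaemic mice, were compared. The deposited tables hold, per the file headers, the unique read count of each gene, its length, the covered percent of that length and its RPKM. The labels name no aligner, counter, build or annotation. The deposited counts summed to 9625763 in bone marrow and 8264712 in spleen, and a gene missing from a table was given 0 reads. RPKM recomputed from count, length and total differed by at most 6.7e-06 percent.

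Tables were joined on the gene identifier. CPM were computed from the counts with edgeR 4.0.16 (R 4.3.3) and TMM factors of 0.977 and 1.02. Ratios were taken on log2(CPM + 1) and called at 2-fold with at least 10 reads in a library. Folds are CPM ratios with exact conditional binomial (Clopper-Pearson) 95% intervals, and levels carry exact Poisson ones. Both cover counting error only. They treat reads as independent, which reads after PCR are not, so they can be too narrow. A count of 0 allows 3 reads, which is 0.319 CPM for marrow and 0.355 CPM for spleen. The code was tested on simulated counts.

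Every member is accounted for. Full values went to genes past 2-fold with at least 100 reads in a library and to the 5 highest by RPKM in each library. Members, families and lists were chosen with earlier results of these data known. One gene of the signalling list is not reported here and was left out of its counts and median. Gene names, neighbours, overlaps and promoters came from RefSeq GRCm38.p6, which matched all 62 identifiers. Genes of like length and read count, used beside the coverage values, were at most 25% above the member in both, and no further below by the same factor. That window was set after the data were seen. The alternatives used size factors from DESeq2 1.42.0, library totals, TMM without marker genes, other pseudocounts and floors, and RPKM.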

Additional observations from a re-analysis of the deposited data

How the results depend on the processing

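The count higher in bone marrow was 14 of 50, beside 14.1% of all genes. It moved to 5 of 50 with a pseudocount of 5 CPM, beside 9.59% of all genes. A floor of 10 CPM left 34 genes, of which 9 stood higher in marrow, beside 13.7% of all genes left. Under the other 6 alternatives the count towards marrow lay between 11 and 15, beside 10.6% to 16.1% of all genes. The count higher in spleen was 19 of 50, beside 14.6% of all genes. It was 14 of 50 with a pseudocount of 5 CPM, beside 9.33%, and 21 of 50 with a pseudocount of 0.1 CPM, beside 17.2%. With a floor of 10 CPM it was 15 of 34, beside 13.3%, and without a floor 19 of 62, beside 11.6%. All other settings lay between 14 and 21. The median log2 ratio was -0.56 and ranged from -0.69 to -0.38. With a pseudocount of 5 CPM 14 genes lost their call: Il1rl2, Il4i1, Il11ra1, Il12b, Il15, Il1a, Il1rap, Il2ra, Il6, Il20rb, Il1f9, Il22ra2, Il21 and Il33. On log2(RPKM + 1) 5 lost it: Il1a, Il1rap, Il20rb, Il22ra2 and Il21. Of the cytokine and receptor pairs, an analysis added after seeing the data, 4 in the same library and 3 in opposite ones became 3 and 2 on log2(RPKM + 1), and 1 and 1 with a pseudocount of 5 CPM or a floor of 10 CPM. DESeq2 size factors and TMM without marker genes changed no call. No paired analysis was possible because each tissue had 1 library. Depth limits genes near 10 reads, such as Il10, Il17rd and Il23r, whose intervals span several fold.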

Other observations

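Il16 was read over part of its length in both libraries. In the deposited coverage column 60.8% of its 4989 bases were covered by 1647 reads in bone marrow and 63.5% by 3016 reads in spleen. Genes of like length and read count had median covered shares of 98.1% and 99.0%. For comparison, the covered share of Il1rl1 was 83.9% with 273 reads in bone marrow and 33.4% with 51 reads in spleen, near the medians of 86.6% and 37.1% for like genes. The Il16 gene is known to give a long and a short precursor. The deposited tables give 1 count per gene, and which transcript the reads came from was not tested.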
